A study of Mus musculus with 2 samples.

Results

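The 8 chemokine receptor genes Ccr2, Ccr7, Ccr9, Cx3cr1, Cxcr3, Cxcr4, Cxcr6 and Xcr1 were described across the immune classes infiltrating B16-OVA mouse melanomas. They were taken by name from a table of 17232 genes in 5022 cells, and all 8 were in it. The cells were DAPI- CD45.2+ tumor-infiltrating immune cells (TIIs), sorted 14 days after challenge with B16-OVA, a melanoma line that carries the ovalbumin antigen. The libraries came from Maoa WT mice and from Maoa KO mice, the latter carrying the hypomorphic 129S-Maoa tm1Shih/J allele of monoamine oxidase A bred onto C57BL/6J. Each library pooled 10 tumors, and mice of this study were 8 to 12 weeks old and female unless stated otherwise. The labels name no treatment besides the tumors, and the hypomorphic allele is carried by every cell of the KO mice.

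A single library per genotype leaves no replicate error, so no test between genotypes was possible and every difference compares these libraries and not the genotypes. Levels are UMIs (unique molecular identifiers, a count of captured mRNA molecules) of a gene in 1000000 UMIs (CPM), with exact Poisson 95% intervals. Shares of cells have exact Clopper-Pearson 95% intervals. These intervals cover counting error only, and cells of the same pool are not replicates. Maoa itself went against the labels, since the WT-labelled library had fewer UMIs of it (7, found in 6 cells, or 0.243 CPM with limits of 0.0977 and 0.501) than the KO-labelled library (15, found in 14 cells, or 0.633 CPM with limits of 0.354 and 1.04). These intervals overlapped, and how the allele alters the Maoa transcript is not given in the sources used here. Every direction given here therefore rests on the labels as deposited, and the libraries are called WT-labelled and KO-labelled. The WT-labelled library held 2392 cells and 28801253 UMIs, and the KO-labelled library held 2630 cells and 23702018 UMIs, with medians of 9887.5 and 6945.5 UMIs per cell. The libraries shared 13 cell barcodes. Cells with UMIs of both T cell and myeloid markers (mixed cells, at least 3 UMIs of the CD3 genes and at least 5 of myeloid genes) made up 20.4% of the WT-labelled and 10.7% of the KO-labelled cells.

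Chemokine receptors are membrane proteins that couple to inhibitory G proteins and steer leukocytes along gradients of small secreted ligands. Each leukocyte type carries its own set and so follows its own routes. CCR2 and CX3CR1 are best known on monocytes, CCR7 on naive lymphocytes and on DCs that migrate to lymph nodes, CCR9 on pDCs and gut-homing lymphocytes, CXCR3 and CXCR6 on effector T cells, and XCR1 on cross-presenting cDC1 cells. CXCR4, the receptor for CXCL12, is found on most leukocytes.

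Cells were grouped without any chemokine receptor gene. The 6 classes were T cells (1040 WT-labelled and 1116 KO-labelled cells), NK cells (188 and 267), macrophages and monocytes (TAM/Mono; 970 and 834), DCs (139 and 318), pDCs (47 and 68) and B cells (8 and 27). T and NK cells, TAM/Mono cells, and DCs with pDCs were then split into 28 sub-clusters, which with the B cells gave 29 groups of cells. A sub-cluster was called X-like only from marker lists that held no receptor, and otherwise by its leading gene. The T, NK, B, pDC and DC lists were each highest, as summed CPM, in their own class, and the TAM list in TAM/Mono cells. The monocyte list was instead highest in pDCs, at 8862 CPM (WT-labelled) and 9137 CPM (KO-labelled) against 4271 and 5152 CPM in TAM/Mono cells. The B cell class also held 2446 and 1805 CPM of pDC markers, 3246 and 2204 CPM of monocyte markers and 526 and 1898 CPM of TAM markers. The T cell-like sub-clusters inside the TAM/Mono class and the DC class were 90.9% and 80.4% mixed cells. Median depths, WT-labelled and KO-labelled, were 13785 and 13134.5 UMIs per DC, 10365 and 8714 per TAM/Mono cell, 9962 and 4847.5 per T cell, 7325 and 6945.5 per pDC and 4662 and 4801 per naive-like T cell. Because depth differed, shares of cells with a UMI were compared after thinning each cell to a fixed number of UMIs. Thinning left out 73 WT-labelled and 99 KO-labelled TAM/Mono cells at 5700 UMIs, 0 and 180 T cells at 3500, 6 and 37 DCs at 8400 and 3 and 9 pDCs at 5600.

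The genes lie on 4 chromosomes (mm10, GENCODE M21). Cxcr4 is on chromosome 1 (128588199 to 128592293), Ccr7 on chromosome 11 (99144196 to 99155077) and Cxcr3 on chromosome X (101731535 to 101734269), the chromosome that also carries Maoa. The other 5 are on chromosome 9, where Cx3cr1 (119901616 to 120069879) stands apart from a cluster of 4 neighbours within 435.1 kb. In order these are Ccr9 (123678439 to 123784330), Cxcr6 (123806475 to 123811760), Xcr1 (123852315 to 123862029) and Ccr2 (124101950 to 124113557). Most of their UMIs lay in different classes, namely pDCs, T cells, DCs and TAM/Mono cells. Cxcr6 lies inside Fyco1, on the opposite strand and without overlap of exons. Fyco1 ranged from 3.44 CPM to 22.0 CPM per library over the T and NK sub-clusters, a far smaller span than that of Cxcr6. Exons of Ccr9 overlap those of Slc6a20a and AC165425.1, and exons of Cx3cr1 those of Gm33858, all on the opposite strand. AC165425.1 (123768114 to 123791289) spans the 3′ end of Ccr9 and is not in the table. Ccr9 also overlaps Gm17200 on its own strand and shares 269 identical bases with it. Gm17200 ends at 123701046, far from the 3′ end of Ccr9, and is not in the table.

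Promoter sequence is shown for 3 receptors because their windows hold at most 2 bases of an annotated exon of the gene and their patterns differed: Cxcr4 had 14 groups overlapping its highest, Cxcr6 was held mostly by T cells and Xcr1 by DCs. Each run is the 150 bases before the RefSeq start, 5′ to 3′ on the gene's strand (GRCm38.p6), with every CG dinucleotide in capitals. The Cxcr4 window is chr1:128592300-128592449 (minus strand), the Cxcr6 window chr9:123806327-123806476 (plus strand) and the Xcr1 window chr9:123862030-123862179 (minus strand).
Cxcr4: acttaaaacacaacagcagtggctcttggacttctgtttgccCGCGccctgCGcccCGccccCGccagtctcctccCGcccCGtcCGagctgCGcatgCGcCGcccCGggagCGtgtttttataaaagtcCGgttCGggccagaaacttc
Cxcr6: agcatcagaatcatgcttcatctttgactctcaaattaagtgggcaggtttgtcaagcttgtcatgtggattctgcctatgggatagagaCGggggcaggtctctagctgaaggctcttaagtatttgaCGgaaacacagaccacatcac
Xcr1: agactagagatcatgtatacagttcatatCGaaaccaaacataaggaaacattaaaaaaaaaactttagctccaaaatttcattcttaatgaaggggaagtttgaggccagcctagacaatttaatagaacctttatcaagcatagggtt
The Cxcr4 window held 15 CGs and 63.3% G or C, against 2 CGs and 46% for Cxcr6 and 1 CG and 32.7% for Xcr1. CG reads the same on either strand. Of 32851 RefSeq promoter windows of the same length, 15.3% held at least 15 CGs, 85.7% held at least 1, and the median was 4. Of the 7 receptors with an entry (all but Ccr7), the windows of the other 4 held 1 CG (Ccr2, Ccr9), 3 (Cxcr3) and 4 (Cx3cr1), but annotated exons of the same gene cover 150 of the 150 bases for Ccr2 and Cx3cr1, 122 for Cxcr3 and 42 for Ccr9. These counts describe the letters only.

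**Figure D1:**
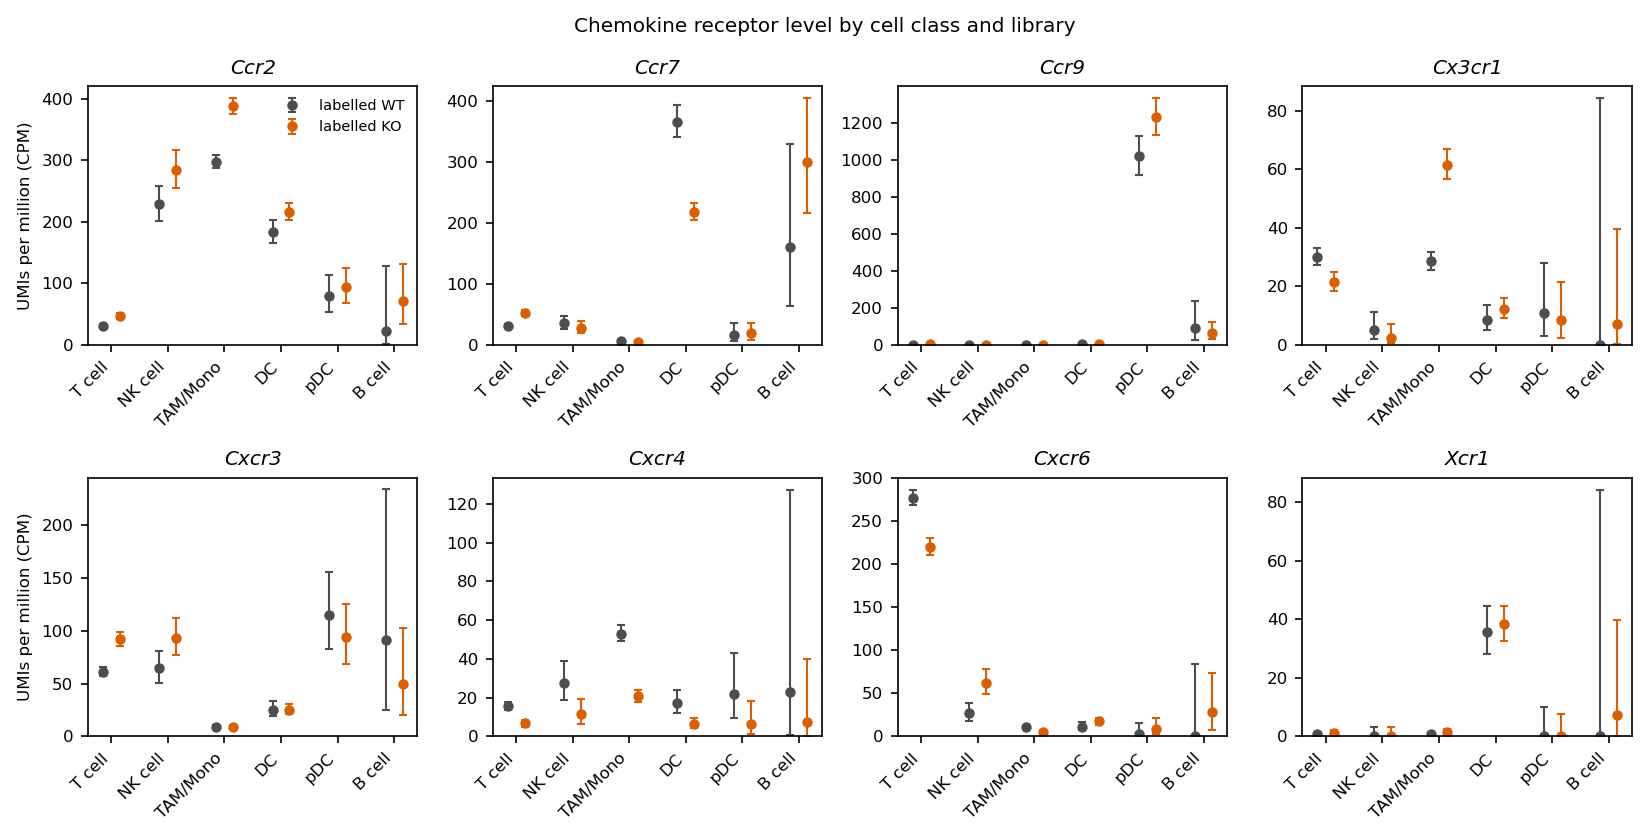
Level of each receptor by cell class, as CPM on linear axes that start at 0, with 1 point per library (dark, labelled WT; orange, labelled KO) and exact Poisson 95% intervals. Ccr9 stood at 1020 and 1229 CPM in pDCs and under 100 CPM in every other class, while Cxcr4 was lower in the KO-labelled library in all 6 classes, with overlapping intervals in pDCs and B cells; in NK cells the intervals met at 18.9 and 19.2 CPM.

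Ccr2 was the most abundant member, with 4642 WT-labelled and 5244 KO-labelled UMIs. It encodes the receptor for CCL2 and related ligands that brings classical monocytes out of bone marrow. Its UMIs were mostly in TAM/Mono cells, with 76.5% (interval 75.3% to 77.7%) in the WT-labelled and 66.6% (65.3% to 67.9%) in the KO-labelled library. The level there was 298 CPM (288 to 308) and 388 CPM (375 to 401). NK cells followed with 229 CPM (202 to 258) and 285 CPM (256 to 316), then DCs with 184 CPM (166 to 203) and 216 CPM (202 to 230), and the NK and DC intervals did not overlap in the KO-labelled library. T cells were low, at 30.9 and 46.6 CPM. Thinned to 5700 UMIs per cell, 59.9% (56.6% to 63.1%) of WT-labelled and 71.0% (67.6% to 74.3%) of KO-labelled TAM/Mono cells held a Ccr2 UMI, against 0 of 38 and 3 of 89 naive-like T cells, of which 103 and 229 were left out. Without thinning the TAM/Mono shares were 69.4% and 75.5% and the naive-like T cell shares 2.84% and 4.40%.

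Within the TAM/Mono class Ccr2 ran along a gradient. The classical monocyte-like sub-cluster led by Hp stood at 735 CPM (663 to 813) in the WT-labelled and 580 CPM (533 to 629) in the KO-labelled library, and the MHC class II monocyte-derived-like cells at 497 CPM (468 to 527) and 657 CPM (622 to 693). The nonclassical monocyte-like cells stood at 382 CPM (338 to 429) and 324 CPM (282 to 370). Over both libraries 4 sub-clusters overlapped the highest, so the top of the order was not resolved. The C1q macrophage-like cells were far below, at 37.3 CPM (29.8 to 46.2) and 56.0 CPM (47.1 to 66.1). Among NK cells Ccr2 was highest in the Gzma-led sub-cluster, with 269 CPM (235 to 307) and 339 CPM (300 to 380), and stood at 148 CPM (107 to 199) and 173 CPM (133 to 222) in the Xcl1-led sub-cluster. Among DCs the Cd209a DC-like cells held 298 CPM (253 to 349) and 260 CPM (236 to 285), and the mature DC-like cells held 25.1 CPM (11.5 to 47.7) and 14.6 CPM (5.87 to 30.1).

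Ccr2 was higher in the KO-labelled library in T cells, NK cells, TAM/Mono cells and DCs. The log2 ratio of CPM, KO-labelled over WT-labelled, was 0.38 in TAM/Mono cells (0.31 to 0.45), 0.59 in T cells (0.39 to 0.80), 0.32 in NK cells (0.08 to 0.55) and 0.23 in DCs (0.06 to 0.40), none of them 2-fold. In the sub-clusters this was uneven: of 24 with at least 20 UMIs, 19 were higher and 5 lower in the KO-labelled library, with intervals away from 0 in 11 and 2 of them. The highest log2 ratio in the TAM/Mono sub-clusters was 1.18 (0.84 to 1.52) in the Hspa1a-led cells. The classical monocyte-like sub-clusters went both ways, since the Hp-led cells were lower (-0.34, -0.53 to -0.15) and the Dmkn-led cells higher (0.55, 0.33 to 0.76). With each sub-cluster given the same share in both libraries, the log2 ratio was 0.33 in TAM/Mono cells and 0.03 in DCs.

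Cx3cr1 encodes the receptor for the membrane-bound chemokine CX3CL1 and is a mark of nonclassical monocytes and many tissue macrophages. In TAM/Mono cells it stood at 28.6 CPM in the WT-labelled and 61.6 CPM in the KO-labelled library, a log2 ratio of 1.11 (0.91 to 1.31), and this class held 44.5% and 69.5% of its UMIs. T cells went the other way, at 30.1 and 21.5 CPM (log2 ratio -0.48, -0.75 to -0.23), and held 51.8% of the UMIs in the WT-labelled library against 22.7% in the KO-labelled library. Thinned to 5700 UMIs, 10.4% (8.45% to 12.6%) and 17.7% (15.0% to 20.6%) of TAM/Mono cells held a UMI, and no naive-like T cell did (0 of 38 and 0 of 89). Without thinning the TAM/Mono shares were 15.4% and 26.5%, and the naive-like T cell shares 0% and 0.314%.

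The nonclassical monocyte-like cells led the order over both libraries with 101 CPM (78.9 to 126) and 149 CPM (121 to 182), and the Hp-led classical monocyte-like cells followed with 73.1 CPM (51.7 to 100) and 170 CPM (145 to 198). The C1q macrophage-like cells did not differ beyond counting error, at 47.6 CPM (39.0 to 57.5) and 48.7 CPM (40.4 to 58.2). Some values rested on very few cells. In the Hspa1a-led cells 93 KO-labelled UMIs came from 10 of 104 cells, with 33 in a single cell, so its log2 ratio of 2.95 describes those cells. In T cells 54 of the 181 KO-labelled UMIs came from 1 cell of a Cd63-led sub-cluster, in which 80.4% of cells were mixed. Without the richest cell of each library the ratio was -0.96 in T cells and 1.13 in TAM/Mono cells. At the same mix of sub-clusters it was -0.20 in T cells and 0.85 in TAM/Mono cells, the latter under 2-fold. Without mixed cells it was -1.47 (-1.90 to -1.06) and 1.06 (0.85 to 1.27), and mixed cells were 28.8% of WT-labelled and 12.9% of KO-labelled T cells. Their part in the T cell value was otherwise not tested.

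**Figure D2:**
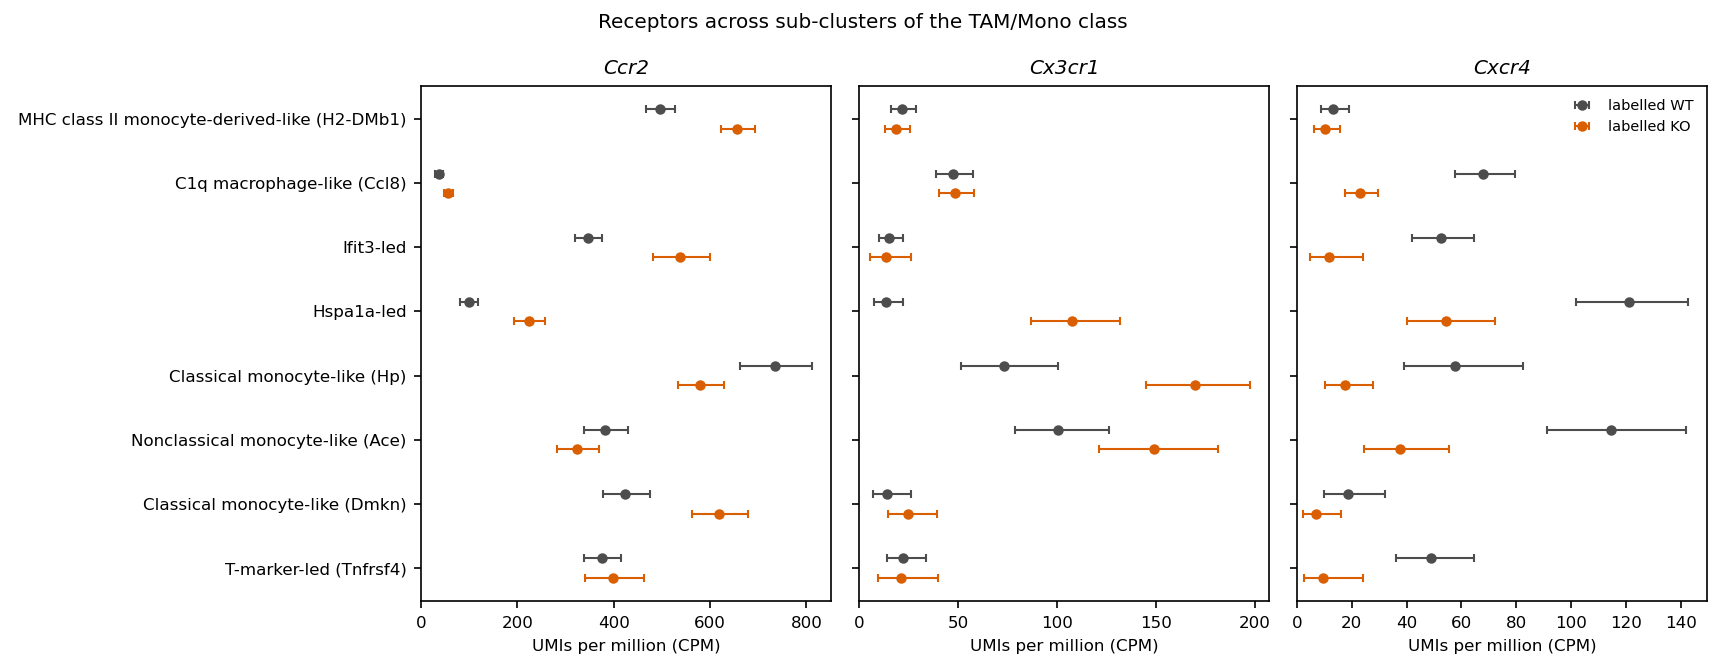
Ccr2, Cx3cr1 and Cxcr4 in 8 of the 9 sub-clusters of the TAM/Mono class, as CPM on linear axes from 0 with exact Poisson 95% intervals, 1 point per library (dark, labelled WT; orange, labelled KO). Ccr2 was lowest in the C1q macrophage-like cells, Cx3cr1 was highest in the Ace-led nonclassical and Hp-led classical monocyte-like cells, and Cxcr4 was highest in the Hspa1a-led and nonclassical monocyte-like cells of the WT-labelled library.

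Cxcr4 stood apart by its direction. It was lower in the KO-labelled library in all 6 classes, with 915 UMIs (31.8 CPM) against 289 UMIs (12.2 CPM) over all cells, a log2 ratio of -1.38. TAM/Mono cells held most of it, with 69.1% and 64.4% of UMIs, at 53.0 and 20.7 CPM (log2 ratio -1.36, -1.604 to -1.12). T cells stood at 15.6 and 6.64 CPM (-1.22, -1.68 to -0.80; 26.7 and 6.89 CPM, or -1.95, at the same mix of sub-clusters), NK cells at 27.6 and 11.4 CPM (-1.25), DCs at 17.1 and 6.56 CPM (-1.38) and pDCs at 21.9 and 6.25 CPM from 8 and 3 UMIs. B cells held 1 UMI in either library. The interval of the ratio lay below 0 in T cells, NK cells, TAM/Mono cells and DCs, and reached 0 in pDCs. Thinned to 3500 UMIs, 7.69% (6.15% to 9.48%) of WT-labelled and 3.1% (2.08% to 4.42%) of KO-labelled T cells held a UMI, and without thinning 15.0% and 4.93%. No class lacked Cxcr4, so no background share was available.

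The same held within classes. Of 16 sub-clusters with at least 20 Cxcr4 UMIs all 16 were lower in the KO-labelled library, 13 of them with intervals below 0. The Hspa1a-led cells stood at 121 CPM (102 to 143) against 54.4 CPM (39.98 to 72.4), the nonclassical monocyte-like cells at 114 CPM (91.1 to 142) against 37.7 CPM (24.4 to 55.6), and the naive-like T cells at 59.0 CPM (43.3 to 78.4) against 11.1 CPM (6.70 to 17.4). The order of levels was poorly resolved, since 14 groups overlapped the highest. Of 7442 genes that reached 100 UMIs in T cells as well as in TAM/Mono cells, 43 (0.578%) were at least 2-fold lower in the KO-labelled library in both classes, Cxcr4 among them. Markers of neutrophils, which had no class of their own, moved with Cxcr4. All 8 were above 0 in TAM/Mono cells of either library, and their summed level was 576 CPM and 202 CPM there, 228 and 70.9 CPM in T cells, 128 and 16.3 CPM in NK cells and 118 and 14.5 CPM in DCs (WT-labelled and KO-labelled). In KO-labelled NK cells 5 of the 8 were at 0, S100a9 and Retnlg among them, and in the other 7 of these class and library groups all 8 were above 0 except Mmp9 in WT-labelled NK cells. Their part in the Cxcr4 difference was not tested. Without mixed cells the log2 ratio was -1.45 in T cells and -1.44 in TAM/Mono cells.

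**Figure D3:**
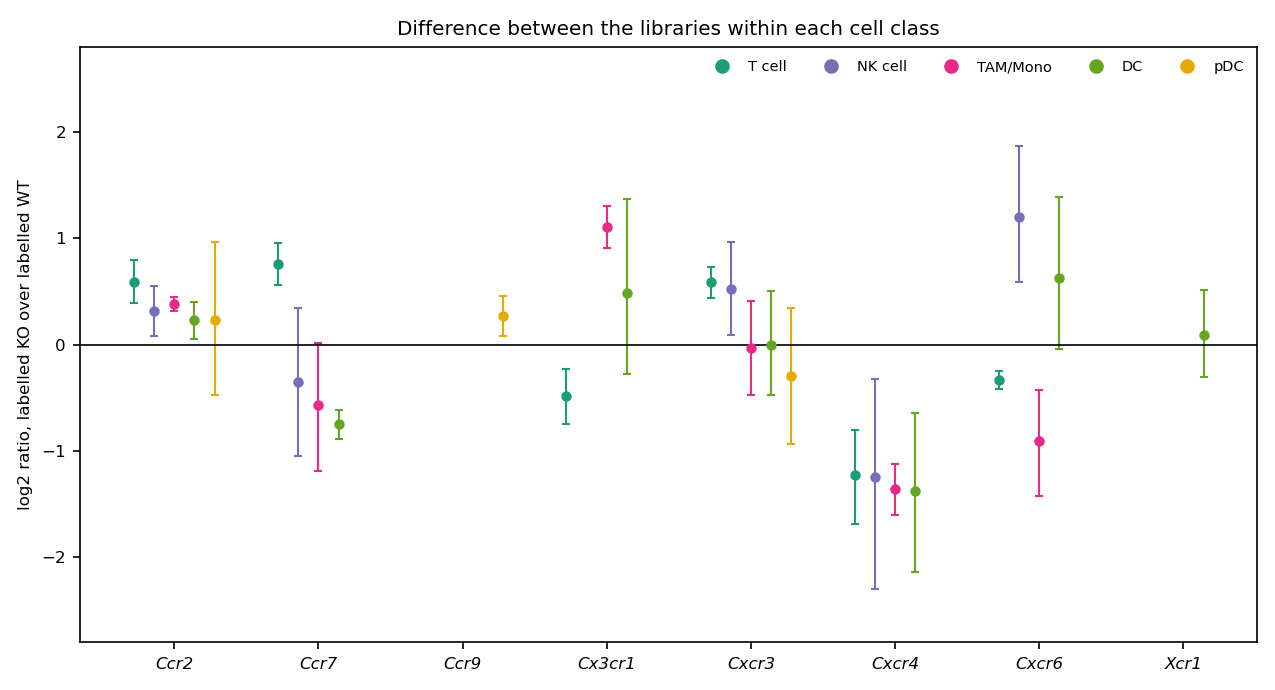
Log2 ratio of each receptor's CPM, library labelled KO over library labelled WT, by cell class for classes with at least 40 UMIs of the gene, with exact conditional binomial 95% intervals and a line at 0. Cxcr4 lay below 0 in each class shown. Ccr2 lay above 0 in each, with an interval that includes 0 in pDCs. Ccr7, Cx3cr1, Cxcr3 and Cxcr6 had classes on either side, those of Cxcr3 below 0 with intervals that include 0.

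Cxcr6, whose product binds the membrane-anchored ligand CXCL16 and marks effector and resident T cells, was the receptor of T cells. They held 95.4% (94.7% to 96.0%) of its WT-labelled and 89.9% (88.5% to 91.1%) of its KO-labelled UMIs, at 277 and 220 CPM. TAM/Mono cells stood at 10.2 and 5.44 CPM. Thinned to 3500 UMIs, 43.0% (39.9% to 46.1%) and 32.6% (29.6% to 35.7%) of T cells held a UMI, against 2.58% and 1.83% of TAM/Mono cells (0 and 13 left out). Without thinning the shares were 62.6% and 41.7% in T cells and 6.39% and 4.20% in TAM/Mono cells. The checkpoint-high T-like sub-cluster led by Nrn1 stood at 495 CPM (470 to 521) and 548 CPM (506 to 591), the Gzmk-led checkpoint-high T-like cells at 454 CPM (406 to 507) and 534 CPM (479 to 594), and the Gzmf-led cells at 454 CPM (414 to 497) and 458 CPM (382 to 545). These 3 overlapped one another, and only the Ifit1-led cells of the WT-labelled library (323 CPM, 264 to 390) reached the lower bound of any of them. Naive-like T cells held 18.8 and 28.1 CPM.

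The class ratio of Cxcr6 in T cells, -0.33 (-0.41 to -0.25), went with the make-up of the class. The Nrn1-led checkpoint-high cells were 24.4% of WT-labelled and 10.5% of KO-labelled T cells, the Gzmf-led cells 4.23% and 0.896%, and the naive-like cells 13.6% and 28.5%. With each sub-cluster at the same share in both libraries the levels were 226 and 236 CPM, a log2 ratio of 0.06. Within the Nrn1-led cells the ratio was 0.15 (0.01 to 0.28). NK cells differed the other way, at 26.7 CPM (31 UMIs) and 62.0 CPM (76 UMIs), a log2 ratio of 1.2 (0.59 to 1.87) that was 0.97 at the same mix. It came from the Xcl1-led NK-like sub-cluster, with 58.5 CPM (34.1 to 93.7) and 165 CPM (126 to 213), since the Gzma-led NK-like cells held 7.12 and 8.40 CPM.

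Cxcr3 encodes the receptor for the interferon-induced ligands CXCL9 and CXCL10 and is carried by effector T cells, NK cells and pDCs. T cells held 74.4% (71.7% to 77.0%) of its UMIs in the WT-labelled and 68.6% (65.8% to 71.3%) in the KO-labelled library. By level pDCs stood at 115 and 93.7 CPM, NK cells at 64.7 and 93.0 CPM and T cells at 61.3 and 92.0 CPM, whereas TAM/Mono cells held 8.72 and 8.55 CPM. The pDC, NK and T cell levels did not separate in the KO-labelled library. Thinned to 3500 UMIs, 19.4% (17.1% to 22.0%) and 29.4% (26.5% to 32.4%) of T cells held a UMI, against 2.37% and 2.68% of TAM/Mono cells. Without thinning these were 35.0% and 39.2%, against 5.98% and 6.12%. The CD4 T-like cells led the order with 261 CPM (216 to 313) and 235 CPM (196 to 279), and the Treg-like cells stood at 229 CPM (198 to 264) and 215 CPM (184 to 250). The Nrn1-led checkpoint-high cells that led Cxcr6 held 15.2 and 11.8 CPM of Cxcr3, while the Gzmk-led checkpoint-high cells, also rich in Cxcr6, ranked just below the Treg-like cells for Cxcr3 with 130 CPM (104 to 159) and 183 CPM (151 to 219) and overlapped the highest group. The log2 ratio in T cells was 0.59 and fell to 0.16 at the same mix of sub-clusters, while in NK cells it was 0.52 and 0.51.

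Ccr7, the receptor that guides naive lymphocytes and maturing DCs to lymph nodes, was held by DCs (59.2% of WT-labelled and 63.3% of KO-labelled UMIs) and T cells (31.1% and 28.7%). Among DCs it belonged to the mature DC-like sub-cluster. There 27 of 27 WT-labelled and 40 of 41 KO-labelled cells held a UMI, at 1912 CPM (1772 to 2061) and 1876 CPM (1756 to 2003), above every other group and without a difference between libraries beyond counting error (log2 ratio -0.03, -0.17 to 0.12). The cDC1-like cells held 16.6 and 2.29 CPM and the Cd209a DC-like cells 3.92 and 5.35 CPM. B cells stood at 160 and 300 CPM from 7 and 42 UMIs. Naive-like T cells were the highest T cell group, at 196 CPM (166 to 229) and 128 CPM (112 to 147). Thinned to 2500 UMIs, 31.9% and 26.4% of naive-like T cells held a UMI. In DCs at 8400 UMIs the shares were 25.6% (18.4% to 33.8%) and 16.4% (12.2% to 21.2%), against 3.14% and 2.004% of TAM/Mono cells (302 and 385 left out), and without thinning 28.1% and 19.8% against 4.33% and 3.96%.

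Over whole classes Ccr7 differed in opposite directions, and both differences were smaller, or of the other sign, at the same mix of sub-clusters. In DCs it was lower in the KO-labelled library, at 367 and 218 CPM (log2 ratio -0.75, -0.89 to -0.61), and in T cells higher, at 30.7 and 51.8 CPM (0.76, 0.56 to 0.96). Mature DC-like cells were 19.4% of WT-labelled and 12.9% of KO-labelled DCs. At the same mix of sub-clusters the ratio was -0.10 in DCs and -0.15 in T cells. Single sub-clusters went both ways. Among DCs the Cxcl10-led cells held 157 CPM in the WT-labelled library (59 UMIs in 6 cells, 31 of them in 1 cell) and 16.1 CPM (4 UMIs) in the KO-labelled library, a log2 ratio of -3.13 (-5.21 to -1.85), while the T cell-like sub-cluster was higher (1.51, 0.35 to 3.14). Among T cells the level was lower in the KO-labelled library in naive-like T cells (log2 ratio -0.61, -0.91 to -0.30) and Treg-like cells (-1.25, -2.44 to -0.24). It was higher in the Cenpf-led (2.26, 1.52 to 3.04), Klra6-led (1.69, 0.81 to 2.77) and Gzmf-led cells (1.84, 0.88 to 2.79). Outside the naive-like cells few cells held a UMI. At 2500 UMIs these were 2 of 98 WT-labelled and 5 of 92 KO-labelled Treg-like cells, the other direction from the level. They were 5 of 178 and 3 of 64 Cenpf-led, 3 of 74 and 28 of 220 Klra6-led, and 3 of 46 and 1 of 10 Gzmf-led cells. Mixed cells were 46.3% of the Cenpf-led and 64.8% of the Gzmf-led T cells.

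**Figure D4:**
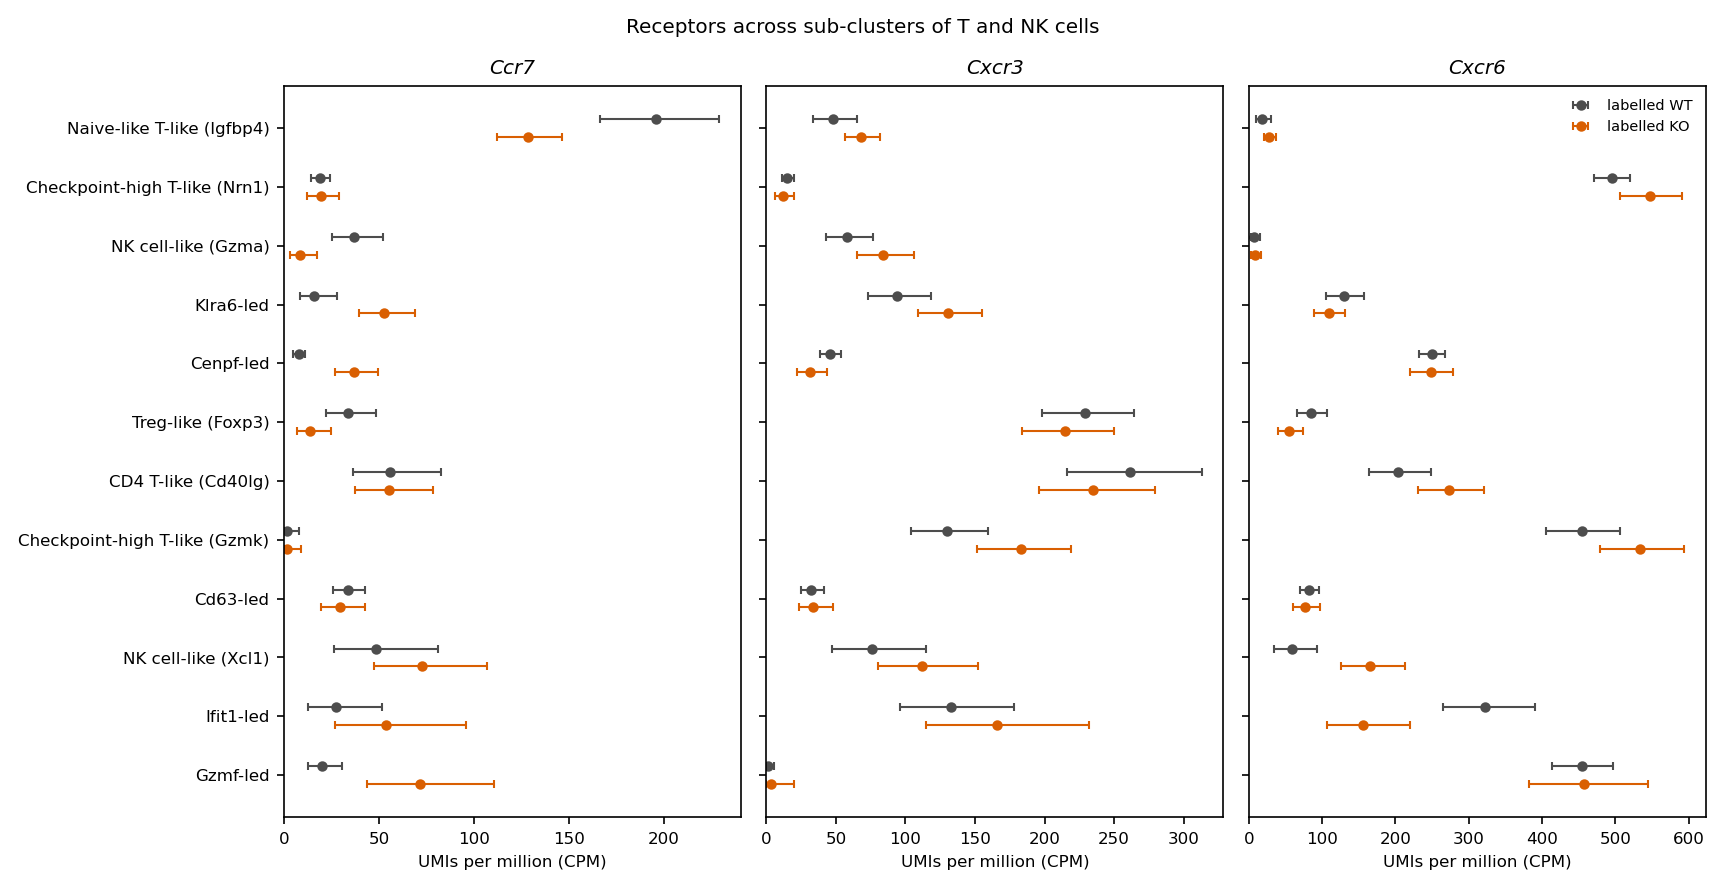
Ccr7, Cxcr3 and Cxcr6 in the 12 sub-clusters of T and NK cells, as CPM on linear axes from 0 with exact Poisson 95% intervals, 1 point per library (dark, labelled WT; orange, labelled KO). Ccr7 was highest in naive-like T cells, Cxcr3 in CD4 T-like and Treg-like cells, and Cxcr6 in the checkpoint-high and Gzmf-led cells.

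Ccr9 encodes the receptor for CCL25, and pDCs held 92.5% (89.5% to 94.9%) of its WT-labelled and 91.5% (89.0% to 93.5%) of its KO-labelled UMIs. Of pDCs, 97.9% and 97.1% held a UMI without thinning, and 90.9% (78.3% to 97.5%) and 96.6% (88.3% to 99.6%) at 5600 UMIs, against 0.333% and 0.404% of TAM/Mono cells (0.619% and 0.839% without thinning, 68 and 91 left out). The level was 1020 CPM in the WT-labelled and 1229 CPM in the KO-labelled library (log2 ratio 0.27, 0.08 to 0.46). B cells came next with 91.4 and 64.2 CPM from 4 and 9 UMIs, in the class that also carried pDC markers. T cells held 6 and 27 UMIs in all.

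Xcr1, the receptor for the ligand XCL1 made by NK and CD8 T cells, was held by DCs to 82.4% (73.0% to 89.6%) in the WT-labelled and 87.6% (82.1% to 91.9%) in the KO-labelled library. The cDC1-like cells stood at 208 CPM (163 to 260) and 151 CPM (126 to 179), with a UMI in 15 of 20 and 46 of 58 cells. In DCs at 8400 UMIs the shares were 10.5% (5.88% to 17.0%) and 16.0% (11.9% to 20.8%), against 0.175% and 0% of T cells (468 and 852 left out), and without thinning 10.8% and 18.2% against 0.673% and 0.538%. No UMI was seen in 188 WT-labelled and 267 KO-labelled NK cells, which at a limit of 3 counts allows shares of up to 1.596% and 1.12% of cells with a UMI, nor in 47 and 68 pDCs, which allows up to 6.38% and 4.41%. In DCs the level did not differ beyond counting error, at 35.7 and 38.2 CPM (log2 ratio 0.09). Over all cells it was 3.16 and 8.14 CPM (log2 ratio 1.36), with DCs at 7.30% of WT-labelled and 18.6% of KO-labelled UMIs. Within the cDC1-like cells the log2 ratio was -0.46 (-0.88 to -0.03). The Birc5-led DCs went the other way, with 0 UMIs in 6 WT-labelled and 23 UMIs in 22 KO-labelled cells (3.63, lower limit 0.60).

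**Figure D5:**
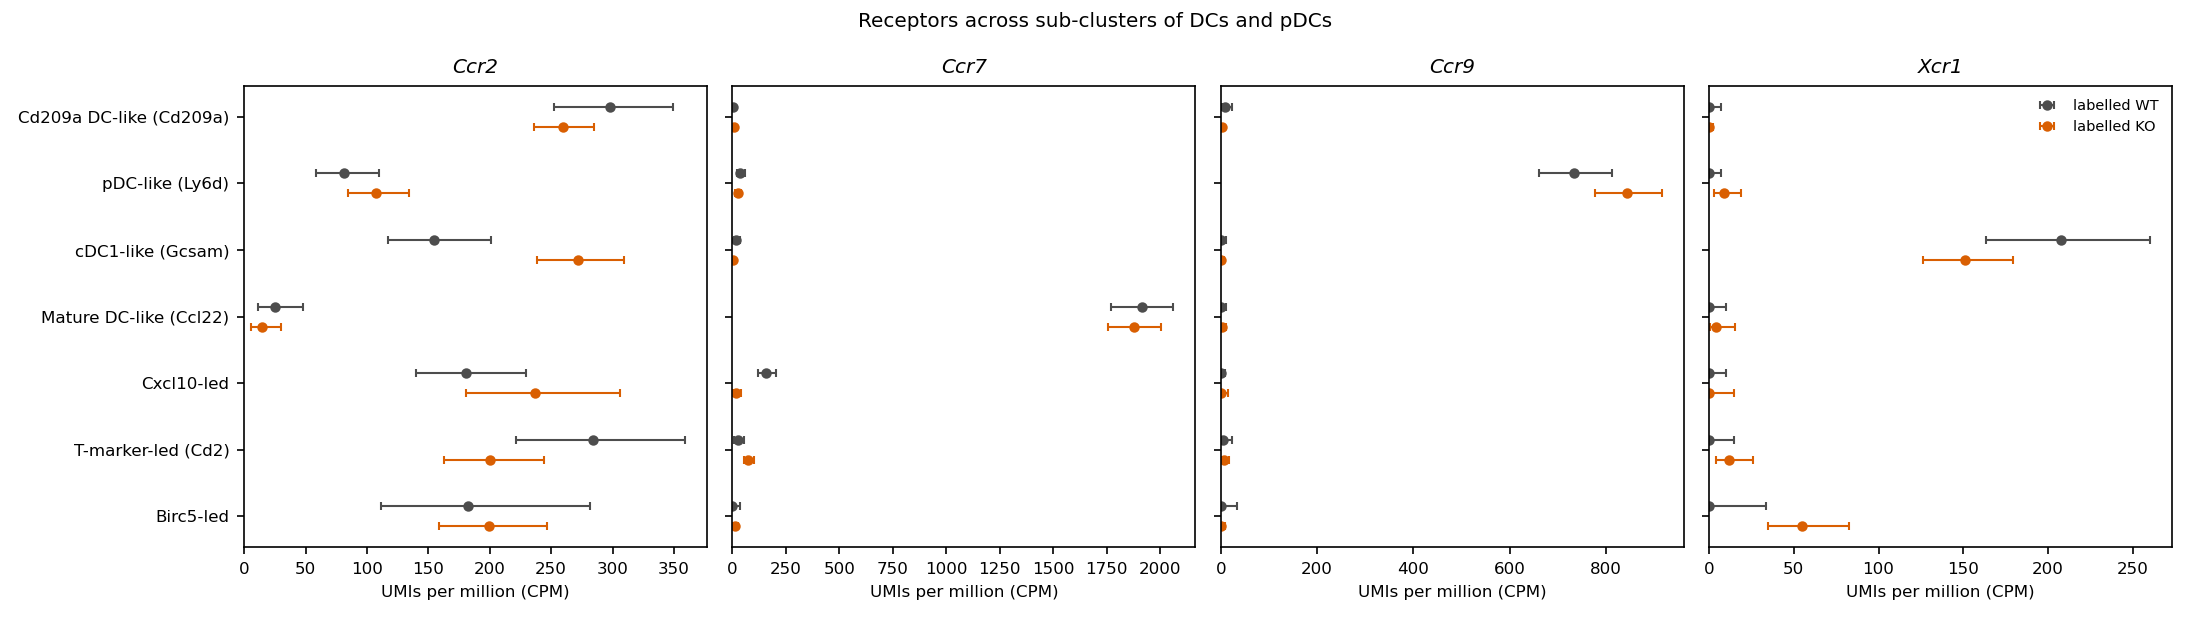
Ccr2, Ccr7, Ccr9 and Xcr1 in the 7 sub-clusters of DCs and pDCs, as CPM on linear axes from 0 with exact Poisson 95% intervals, 1 point per library (dark, labelled WT; orange, labelled KO). Ccr7 stood at 1912 and 1876 CPM in mature DC-like cells, Ccr9 at 734 and 845 CPM in pDC-like cells and Xcr1 at 208 and 151 CPM in cDC1-like cells, while Ccr2 was spread over most sub-clusters and lowest in mature DC-like cells.

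Receptor pairs were compared in the same cells at 1 depth per class. In DCs at 8400 UMIs, Ccr7 was found in 10.8% (4.78% to 20.2%) of WT-labelled and 3.91% (1.59% to 7.89%) of KO-labelled cells with Ccr2, but in 42.4% (29.6% to 55.9%) and 36.3% (27.0% to 46.4%) of those without it. Ccr7 and Xcr1 met in 0 of 133 and 2 of 281 DCs. Ccr2 and Xcr1 did meet: 21.4% (15.7% to 28.0%) of KO-labelled DCs with Ccr2 held Xcr1 against 7.45% (3.05% to 14.7%) of those without, while in the WT-labelled library the shares were 10.5% and 8.77%, with overlapping intervals. In T cells at 3500 UMIs, Cxcr6 was found in 15.0% (8.80% to 23.1%) and 17.7% (11.8% to 25.1%) of cells with Ccr7 and in 46.9% and 34.8% of cells without it. In DCs at 8400 UMIs, 30.3% (15.6% to 48.7%) and 13.04% (4.94% to 26.3%) of DCs with Ccr7 held Cxcr4, and 5% (1.64% to 11.3%) and 2.55% (0.943% to 5.47%) of those without, with overlapping intervals in the KO-labelled library. Cxcr6 was found in 33.3% (27.1% to 40.05%) of WT-labelled T cells with Cxcr3 and 47.1% (43.6% to 50.6%) of those without, and in 32.6% and 32.9% in the KO-labelled library. Cx3cr1 was found in 12.4% (9.73% to 15.5%) of WT-labelled TAM/Mono cells with Ccr2 and 7.12% (4.71% to 10.3%) without, and in 18.3% and 19.0% in the KO-labelled library. At 2500 UMIs per cell, 39.3% of WT-labelled and 37.9% of KO-labelled cells held no UMI of any of the 8, 47.0% in either library held exactly 1 receptor, and 1.92% and 2.17% held 3 or more.

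At a 2-fold ratio in either direction, 3.06% of 10487 genes with at least 100 UMIs passed over all cells, and 2 of the 8 receptors did (Cxcr4 lower and Xcr1 higher in the KO-labelled library, beside 1.77% of genes lower and 1.29% higher). In T cells 2.75% of genes and 1 of 6 receptors passed (Cxcr4, beside 1.71% of genes lower). In NK cells 1.88% and 1 of 3 passed (Cxcr6 higher, though under 2-fold at the same mix of sub-clusters). In TAM/Mono cells 2.34% and 2 of 6 passed. These were Cx3cr1 higher, though under 2-fold at the same mix of sub-clusters (beside 0.672% of genes), and Cxcr4 lower (beside 1.67%). In DCs 2.13% (1.78% lower and 0.351% higher) and 0 of 4 passed, and in pDCs 1.68% and 0 of 1. The median log2 ratio of the receptors tested was 0.40 over all cells (8 receptors), 0.13 in T cells (6), 0.52 in NK cells (3), -0.30 in TAM/Mono cells (6) and 0.05 in DCs (4), beside -0.01, -0.07, 0.00, 0.06 and -0.08 for all genes tested there.

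Of 16 ligands of these receptors 11 were in the table. Over all cells 9 had at least 100 UMIs and 1, Ccl7, was at least 2-fold lower in the KO-labelled library (beside 1.77% of genes), with 0 higher, and the median log2 ratio was -0.28 beside -0.01 for all genes. The CCR2 ligands came from TAM/Mono cells: Ccl2 stood at 2904 and 1685 CPM (log2 ratio -0.79), Ccl7 at 2027 and 981 CPM (-1.05), Ccl12 at 887 and 569 CPM (-0.64) and Ccl8 at 605 and 795 CPM (0.39). Thus 3 of the 4 were lower in the library in which Ccr2 was higher. In DCs 3 of 5 ligands tested were at least 2-fold lower (Ccl2, Ccl7 and Cxcl9), beside 1.78% of all genes tested. In T cells 2 of 8 were (Ccl2 and Ccl7), beside 1.71%. Mixed cells were 28.8% of WT-labelled and 12.9% of KO-labelled T cells, and 26.6% and 20.4% of DCs. Their part in these ligand values was not tested. The CXCR3 ligand Cxcl9 was 240 and 84.8 CPM in DCs (-1.50) and 139 and 141 CPM in TAM/Mono cells (0.02). Cxcl9 was among the leading genes of the Cxcl10-led DC sub-cluster, which was 20.1% of WT-labelled and 5.97% of KO-labelled DCs. The ligand ratios given here are not at the same mix of sub-clusters. Cxcl10 was 297 and 237 CPM in TAM/Mono cells. The CXCR6 ligand Cxcl16 was highest in the mature DC-like cells, at 636 and 710 CPM. The XCR1 ligand Xcl1 was highest in the Xcl1-led NK-like cells, at 4899 and 4896 CPM, and had a log2 ratio of 0.33 over all NK cells. The CXCR4 ligand Cxcl12 had 1 UMI in all, and the CX3CR1 ligand Cx3cl1 had 3 WT-labelled and 7 KO-labelled UMIs, in libraries sorted for CD45.2+ cells.

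Of 17 other chemokine receptors and related genes 14 were in the table. Only 5 of them had 100 UMIs over all cells, and 0 of these 5 passed 2-fold in any class. In TAM/Mono cells Ccr1, a receptor for inflammatory CC chemokines, stood at 289 and 214 CPM (log2 ratio -0.44, -0.52 to -0.36), the opposite direction to Ccr2. Of 16 genes of receptor signalling and desensitisation 13 were tested in T cells, where Rgs10, a regulator of G protein signalling, was at least 2-fold higher in the KO-labelled library (57.8 and 119 CPM), beside 1.04% of all genes tested. None passed in the other classes, and Grk3 (listed as Adrbk2), a kinase that desensitises receptors, was at 14.2 and 27.7 CPM in TAM/Mono cells (0.96). Of 10 adhesion and egress genes 8 were tested in T cells, and the egress receptor S1pr1 (11.3 and 35.9 CPM, log2 ratio 1.67) was among those at least 2-fold higher in the KO-labelled library (beside 1.04% of genes), with 0 lower. S1pr1 and Klf2 are also on the list that named naive-like T cells, which were more frequent in that library.

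The genes whose level was most like that of each receptor over the 29 groups were named by Pearson's r of log2(CPM + 1), over 10487 genes. These are descriptions across groups that share libraries and depth. Cxcr6 was closest to Cd3g (r = 0.92), Pdcd1 (0.92) and Cd3e (0.91). Ccr9 was closest to D13Ertd608e (0.90), Siglech (0.89) and Paqr5 (0.89), Cxcr3 to Sesn3 (0.89), Cbx7 (0.88) and Rbm25 (0.88), and Ccr2 to Ptpre (0.86), Rara (0.85) and Fam49b (0.85). Ccr7 was closest to Foxp4 (0.86), Ktn1 (0.84) and Nr4a3 (0.81), and Xcr1 to Gcsam (0.82), Clec9a (0.78) and Mycl (0.75). Cd3g and Cd3e, Pdcd1, Siglech, and Gcsam and Clec9a are markers used here to name T cells, checkpoint-high T-like cells, pDCs and cDC1-like cells. Cxcr4 (RP23-6I17.1 0.79, Nhlrc3 0.75, Arl4c 0.71) and Cx3cr1 (Cpt1a 0.71, Cox4i1 0.69) had the loosest partners.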

How the data were processed

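Single immune cells of B16-OVA tumors were profiled with Chromium Single Cell 3′ V2 chemistry, 1 library per genotype. The authors processed reads with Cell Ranger (version not given in the sources used here) on mm10 and analysed them with Seurat. The deposited table, named as raw counts, holds natural log values: ln(1 + UMIs scaled to 10000 per cell). UMIs were recovered by dividing each exponential minus 1 by the smallest nonzero one of its cell, and every nonzero value of all 5022 cells came out whole within 0.01. The suffix of each barcode gave the library, as the labels state. Cells were as deposited.

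Clusters were rebuilt with Seurat 5.3.0 in R 4.3.3 (13 PCs, resolution 0.8, 15 clusters) without the 8 chemokine receptor genes found among the variable genes, leaving 591, and then split by compartment. No doublet caller was run, and mixed cells were left out only as an alternative. Sub-clusters were named from marker lists, so names may differ from those of the study.

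Levels were computed as CPM of summed UMIs with numpy 2.4.6 and scipy 1.17.1. Log2 ratios had 0.5 UMIs added and exact conditional binomial 95% intervals, which were checked on simulated data. With 1 library per group there was no test, and a gene was counted as past 2-fold only with at least 100 UMIs in the class. Thinning drew a fixed number of UMIs per cell with a fixed seed. UMIs of a cell are not independent, so intervals are too narrow where few cells hold most UMIs. Named genes were the receptors, the genes of 4 lists (ligands, other receptors, signalling, adhesion) and the 3 genes most like each receptor. The members and lists were chosen with earlier results of these data known. Alternatives covered scaling, cell weight, thinning, mix of sub-clusters, mixed cells, cell filter, shared barcodes and clustering. A few of these named genes, and 1 sub-cluster in a plot, are not reported here.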

Additional observations from a re-analysis of the deposited data

Results flagged for a closer look

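For 3 receptors the log2 ratio of the KO-labelled over the WT-labelled library had opposite signs in different classes, with intervals away from 0. The difference between classes was not tested, since each library is 1 sample. Ccr7 was at 0.76 in T cells and -0.75 in DCs. Cx3cr1 was at 1.11 in TAM/Mono cells and -0.48 in T cells. Cxcr6 was at 1.2 in NK cells, -0.33 in T cells and -0.90 in TAM/Mono cells. At the same mix of sub-clusters Ccr7 was at -0.15 in T cells and -0.10 in DCs, so its signs were no longer opposite. Cx3cr1 was then at 0.85 in TAM/Mono cells and -0.20 in T cells. Cxcr6 was at 0.97 in NK cells, 0.06 in T cells and -0.47 in TAM/Mono cells. In TAM/Mono cells 75 of the 122 WT-labelled and 18 of the 49 KO-labelled Cxcr6 UMIs were in the T cell-like sub-cluster, of which 90.9% were mixed cells, and without mixed cells the log2 ratio was -0.32 with an interval that includes 0 (-1.11 to 0.43).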

How the results depend on the processing

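No paired analysis was possible because each genotype has 1 library, and no library could be left out. Of the log2 ratios under the alternatives, 100 stayed within the interval of the reported value, 16 moved further and 3 changed sign from a value whose interval lay away from 0. Xcr1 in DCs, whose interval includes 0, was -0.15 at the same mix of sub-clusters and -0.0037 at a clustering resolution of 1.2. With sub-clusters at the same mix in both libraries, the ratio also changed sign for Cxcr6 in T cells (0.062) and Ccr7 in T cells (-0.15), and moved for Ccr7 in DCs (-0.10), Cx3cr1 in TAM/Mono cells (0.85) and T cells (-0.20), Cxcr3 in T cells (0.16) and Cxcr4 in T cells (-1.95). With 20 PCs, where the naive-like T cells did not get a name, Cxcr6 in T cells was 0.017. With equal weight per cell the ratio was -0.60 for Ccr7 in DCs, 1.41 for Cx3cr1 in TAM/Mono cells, 0.44 for Cxcr3 in T cells and -0.43 for Cxcr6 in T cells. Thinning gave 0.47 for Ccr2 in TAM/Mono cells, -1.06 for Ccr7 in DCs and -1.80 for Cxcr4 in T cells. Without mixed cells Cxcr6 was -0.54 in T cells and -0.32 in TAM/Mono cells (-1.11 to 0.43, which includes 0), and Cx3cr1 in T cells -1.47, or -0.96 without the richest cell of each library. The richest-cell setting, and all settings for Ccr7 and Cx3cr1 in T cells, Cxcr6 in NK and TAM/Mono cells and Cxcr4 in TAM/Mono cells, were chosen after seeing the data. The cause of each change was not tested beyond the setting itself.

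The share of a receptor's UMIs in its class is given here for the WT-labelled, then the KO-labelled library where both moved. Without mixed cells it was 78.9% and 69.6% for Ccr2, 66.5% and 66.3% for Ccr7, 56.7% and 83.0% for Cx3cr1, 93.7% (KO-labelled) for Ccr9, 72.3% (KO-labelled) for Cxcr3, 19.7% (WT-labelled) for Cxcr4 in T cells and 97.1% (WT-labelled) for Cxcr6. With equal weight per class it was 35.3% and 35.3% for Ccr2, 35.2% (KO-labelled) for Ccr7, 94.5% (KO-labelled) for Ccr9, 34.3% and 54.4% for Cx3cr1, 16.7% and 25.4% for Cxcr3, 9.86% and 11.3% for Cxcr4, 84.5% and 64.4% for Cxcr6 and 96.5% and 79.7% for Xcr1. With 20 PCs it was 68.3% (KO-labelled) for Ccr2, 64.2% and 42.5% for Cxcr3, 13.6% and 8.30% for Cxcr4 and 93.2% and 81.2% for Cxcr6.

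Thinning to a lower depth lowered the share of cells with a UMI, by construction: 44.6% and 53.4% for Ccr2, 7.22% and 12.2% for Cx3cr1, 12.02% and 18.5% for Cxcr3, 3.75% and 1.79% for Cxcr4, 31.2% and 22.7% for Cxcr6, 76.6% (WT-labelled) for Ccr9 and 8.86% (KO-labelled) for Xcr1. Another seed gave 97.7% for Ccr9 in WT-labelled pDCs.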
